A study of Mus musculus and Rattus norvegicus with 4 samples.

Results

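Occupancy of MEF2A was examined at 10 immediate early genes: the nuclear receptor genes Nr4a1, Nr4a2 and Nr4a3, the Krüppel-like factor genes Klf2, Klf4, Klf5, Klf6 and Klf10, the zinc-finger gene Egr1, and Btg2. They were chosen by name from 21887 protein-coding genes on placed chromosomes of the mouse, and all 10 were found under these symbols. The study mapped MEF2A by ChIP-exo, an immunoprecipitation in which an exonuclease trims the bound DNA towards the protein. It used C2C12 cells, an established line of mouse skeletal myoblasts kept for 48 h in differentiation medium with 2% horse serum and antibiotics, and primary rat cardiomyocytes, whose own treatment the labels do not give. Each cell type also had a library made with normal rabbit IgG, which was not analysed here. No genotype or manipulation of MEF2A is given for any of the 4 libraries, and with 1 library per group no test between groups could be made.

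Immediate early genes are transcribed within minutes of a stimulus without new protein synthesis, and many of them encode regulators of transcription. Calcium and MAP kinase signals reach them through factors that already sit on the DNA, among them serum response factor, CREB and the MEF2 family, which is held silent by class IIa histone deacetylases until calcium signals remove these. In T cells, MEF2 is known to carry the calcium signal to the promoter of Nr4a1, and in endothelial cells MEF2 factors downstream of ERK5 are known to activate Klf2 and Klf4.

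The C2C12 peak list held 2797 MEF2A peaks, each with a position and the authors' score. No header gives the scale of the score, and MACS scores of this kind usually rank the significance of a peak, which grows with depth. Peaks are called strong or weak here only by their score within this list. Scores ran from 50.1 to 3100.0 with a median of 77.0, and the median width was 144 bp. Read depth is unknown. A position says nothing about transcription, and a list that starts at a score just above 50 leaves weaker sites unseen. Peaks show binding and not expression, so the labelled cell types could not be checked against markers here.

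Of the 10 early genes, 3 had a peak when each peak was given to whichever protein-coding span lay closest, up to 100 kb away: Nr4a1 with 1 peak, Klf6 with 2 and Btg2 with 1. Over all protein-coding genes the share with an assigned peak was 7.73%. Nr4a2, Nr4a3, Klf2, Klf4, Klf5, Klf10 and Egr1 had none. By family, 1 of 3 NR4A genes and 1 of 5 KLF genes had a peak, while Btg2 had one and Egr1 none. Within 10 kb of the span, the same 3 genes had a peak, against 5.75% of all protein-coding genes. The members were chosen with earlier results of these data known, so these counts describe the genes and test nothing.

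**Figure D1:**
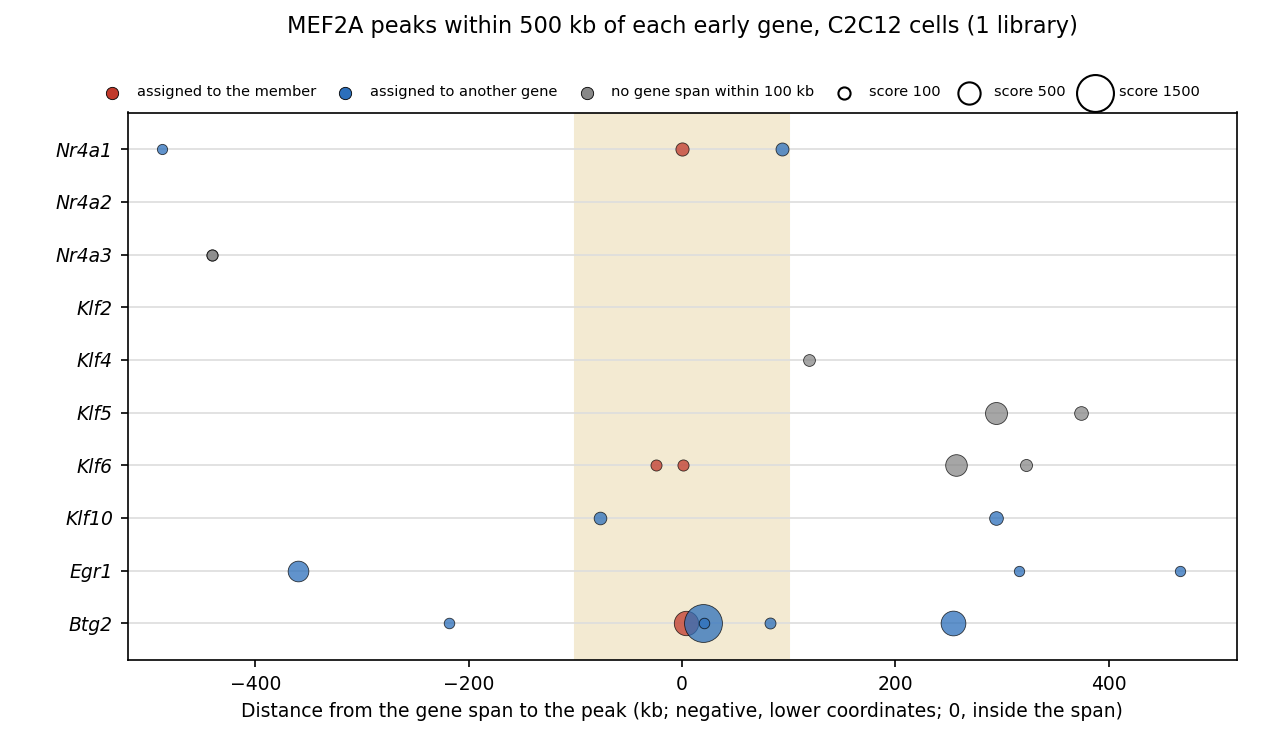
Each row is one early gene, and each circle a C2C12 MEF2A peak placed by its distance in kb from the gene span, with circle area growing with the authors' score. The shaded band marks 100 kb on either side; assigned peaks (red) appear in it for Nr4a1, Klf6 and Btg2, peaks assigned to another gene (blue) crowd around Btg2, and the rows of Nr4a2 and Klf2 are empty.

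RefSeq promoter sequences of the GRCm38.p6 assembly were available for 7 of the 10 genes. Shown 5′ to 3′ are the 250 bases before the start site of Nr4a1, where capitals mark the 71 bases that lie under its MEF2A peak (chr15:101266596-101266845, plus strand), and of Btg2, where capitals mark a full cyclic AMP response element (chr1:134079156-134079405, minus strand). Below them stand Klf2, with the MEF2 consensus in capitals (chr8:72318812-72319061, plus strand), and Nr4a2, with a looser MEF2 match in capitals (chr2:57124004-57124253, minus strand), both shown because they hold a MEF2 motif and lie far from every peak.
Nr4a1: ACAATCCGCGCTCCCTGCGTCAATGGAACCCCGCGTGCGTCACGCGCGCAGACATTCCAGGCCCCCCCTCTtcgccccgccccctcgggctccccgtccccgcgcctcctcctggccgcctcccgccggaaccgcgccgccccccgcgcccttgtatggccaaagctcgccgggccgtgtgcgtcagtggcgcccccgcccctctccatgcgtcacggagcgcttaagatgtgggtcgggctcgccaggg
Btg2: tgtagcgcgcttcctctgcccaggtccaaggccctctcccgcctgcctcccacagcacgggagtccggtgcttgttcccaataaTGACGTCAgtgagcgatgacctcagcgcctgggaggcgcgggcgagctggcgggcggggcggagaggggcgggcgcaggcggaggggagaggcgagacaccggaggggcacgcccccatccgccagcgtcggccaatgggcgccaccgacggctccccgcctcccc
Klf2: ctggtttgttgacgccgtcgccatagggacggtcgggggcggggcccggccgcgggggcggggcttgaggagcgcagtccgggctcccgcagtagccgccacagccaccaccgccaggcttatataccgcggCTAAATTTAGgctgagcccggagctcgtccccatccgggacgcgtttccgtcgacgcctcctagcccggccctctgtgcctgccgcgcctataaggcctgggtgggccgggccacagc
Nr4a2: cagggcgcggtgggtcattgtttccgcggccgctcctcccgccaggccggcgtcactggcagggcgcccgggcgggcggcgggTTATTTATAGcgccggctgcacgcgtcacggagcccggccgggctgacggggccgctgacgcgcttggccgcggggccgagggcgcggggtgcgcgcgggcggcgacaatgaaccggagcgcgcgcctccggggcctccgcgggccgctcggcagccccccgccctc

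Nr4a1 was the only one of the 10 genes with a peak inside its span, against 4.57% of all protein-coding genes. It encodes Nur77, an orphan nuclear receptor that is induced by calcium and cyclic AMP and, in muscle, regulates genes of glucose use. Its span covered 101253902 to 101274795 on chromosome 15. The peak lay at 101266404 to 101266666, was 263 bp wide and had a score of 131, which ranked 760 of 2797. It stretched from 442 to 180 bp before the RefSeq start site at 101266846, so it covered the distal 71 bases of the promoter window printed above and the sequence just beyond it. The annotated span begins 12.9 kb before that start site, the only one of Nr4a1 in the promoter table.

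The promoter window takes in 250 bases before and 50 after a RefSeq start site. Nr4a1 was the only one of the 7 early genes with such a window that had a peak over it, against 65 (0.372%) of 17492 protein-coding genes. Together these 65 genes shared 64 peaks, or 2.29% of the list. Their median score was 77.4, and the Nr4a1 peak was among the 23 that scored 131 or more. No full match to any of the MEF2, CArG, TGACGTCA, GCGTGGGCG, AAAGGTCA or GGGTGTGG motifs was found in the Nr4a1 window. Apart from the looser MEF2 form, variants of these motifs were not searched. The 250 bases before the start were 74.4% G and C. The part of the peak farther upstream lies outside the window and was not searched.

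A second peak stood within 100 kb of Nr4a1, at 101368507 to 101368720 and 93.7 kb above the span. Its score of 124.7 was close to that of the promoter peak. It lay inside the span of Krt80, a keratin gene, and was assigned there. No other listed peak lay within 100 kb of Nr4a1, whose protein-coding neighbours are Grasp, 21.1 kb below, and Atg101, an autophagy gene, 9.51 kb above.

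Nr4a2 and Nr4a3, which encode the related receptors Nurr1 and Nor1, had no peak within 100 kb. The nearest one to Nr4a2 (chromosome 2, 57106830 to 57124003) was 2.96 Mb away, and 96.1% of protein-coding genes were as near to a peak or nearer. Nr4a2 overlapped the predicted gene LOC105244150 and was flanked by Kcnj3 at 1510 kb and Gm52512 at 92.2 kb. Nr4a3 (chromosome 4, 48045078 to 48086447) had a pair of peaks 441 kb below it, with scores of 79.7 and 65.6 and widths of 136 and 114 bp, and 56.5% of protein-coding genes were as near to a peak or nearer. Both lay nearer to Sec61b, at 121 kb, than to Nr4a3, and were too far from any protein-coding span to be assigned. Sec61b and Stx17 are the neighbours of Nr4a3, at 562 and 38.5 kb. Of the 3 NR4A genes, then, Nr4a1 alone had a listed MEF2A peak within 100 kb, against 22% of all protein-coding genes.

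Klf6, a Krüppel-like factor induced by injury and known as a growth suppressor, had 2 weak peaks. The gene covers 5861489 to 5870393 on chromosome 13. One peak, at 5871528 to 5871640, lay 1.14 kb beyond the 3′ end, was 113 bp wide and scored 74.2, rank 1468. The other, at 5837289 to 5837408, lay 24.1 kb before the start site, was 120 bp wide and scored 71.8, rank 1548. Both fell below the list's median score of 77.0. Among all protein-coding genes, 1.96% had 2 or more assigned peaks.

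The gene stands alone, with Akr1e1 at 1250 kb below and Pitrm1 at 678 kb above. The stretch of genome whose peaks would be assigned to it was 208.9 kb, and 91.2% of protein-coding genes had one as long or shorter. Beyond the 100 kb limit, Klf6 was also the nearest protein-coding gene to a stronger peak at 6127401 to 6127781. That peak lay 257 kb above the span, was 381 bp wide and scored 468.7, rank 133. A further peak, at 6193152 to 6193365, scored 97.7 at 323 kb. Over all distances, 5 peaks had Klf6 as their nearest protein-coding gene, and the highest score among them was that of the peak at 257 kb.

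Btg2 had the strongest assigned peak of the 10 genes. The gene, at 134074865 to 134079155 on chromosome 1 and read from the minus strand, encodes an antiproliferative protein that binds the CCR4-NOT deadenylase and is a target of p53. The peak covered 134082808 to 134083470, 663 bp, and started 3.65 kb before the Btg2 start site. Its score of 615 ranked 78 in the list. It also lay inside the span of the noncoding gene Gm31974, so Btg2 had no assigned peak when all annotated genes could take one. An assigned peak with a score at least this high was held by 0.329% of protein-coding genes. This cut was the score of the Btg2 peak, so the cut itself placed Btg2 among them. Together with Nr4a1, Btg2 made 2 of 10 early genes with an assigned peak scoring 100 or more, against 3.47% of all protein-coding genes.

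A stronger peak lay farther upstream of Btg2. At 134098990 to 134099621, 632 bp wide, it scored 1582 and was the 12th of the list. It stood 19.8 kb before the start site of Btg2, but 11.6 kb from the span of Chit1, the chitotriosidase gene. It was therefore assigned to Chit1. A small companion of 149 bp at 134099853 to 134100001 scored 58.0, and another peak at 134161645 to 134161785, on the far side of Chit1, scored 69.1. Both were assigned to Chit1 too. Btg2 was one of 47 protein-coding genes (0.215%) with any of the 12 highest peaks within 100 kb. The cut of 12 was taken from the rank of the 1582 peak, so the cut itself placed Btg2 among them.

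The Btg2 region thus held 4 peaks on the upstream side within 100 kb and none on the downstream side. On that side the span of Fmod, a matrix proteoglycan gene, lies 26.6 kb away. Assignment by the nearest span cannot say which gene a peak acts on, and the stretch between Btg2 and Chit1 is 32.1 kb. The Btg2 promoter window held the palindrome TGACGTCA, 166 to 159 bases before the start site. This element, which binds CREB, was found in 1.79% of all 32851 promoters of the table. No peak covered that window.

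**Figure D2:**
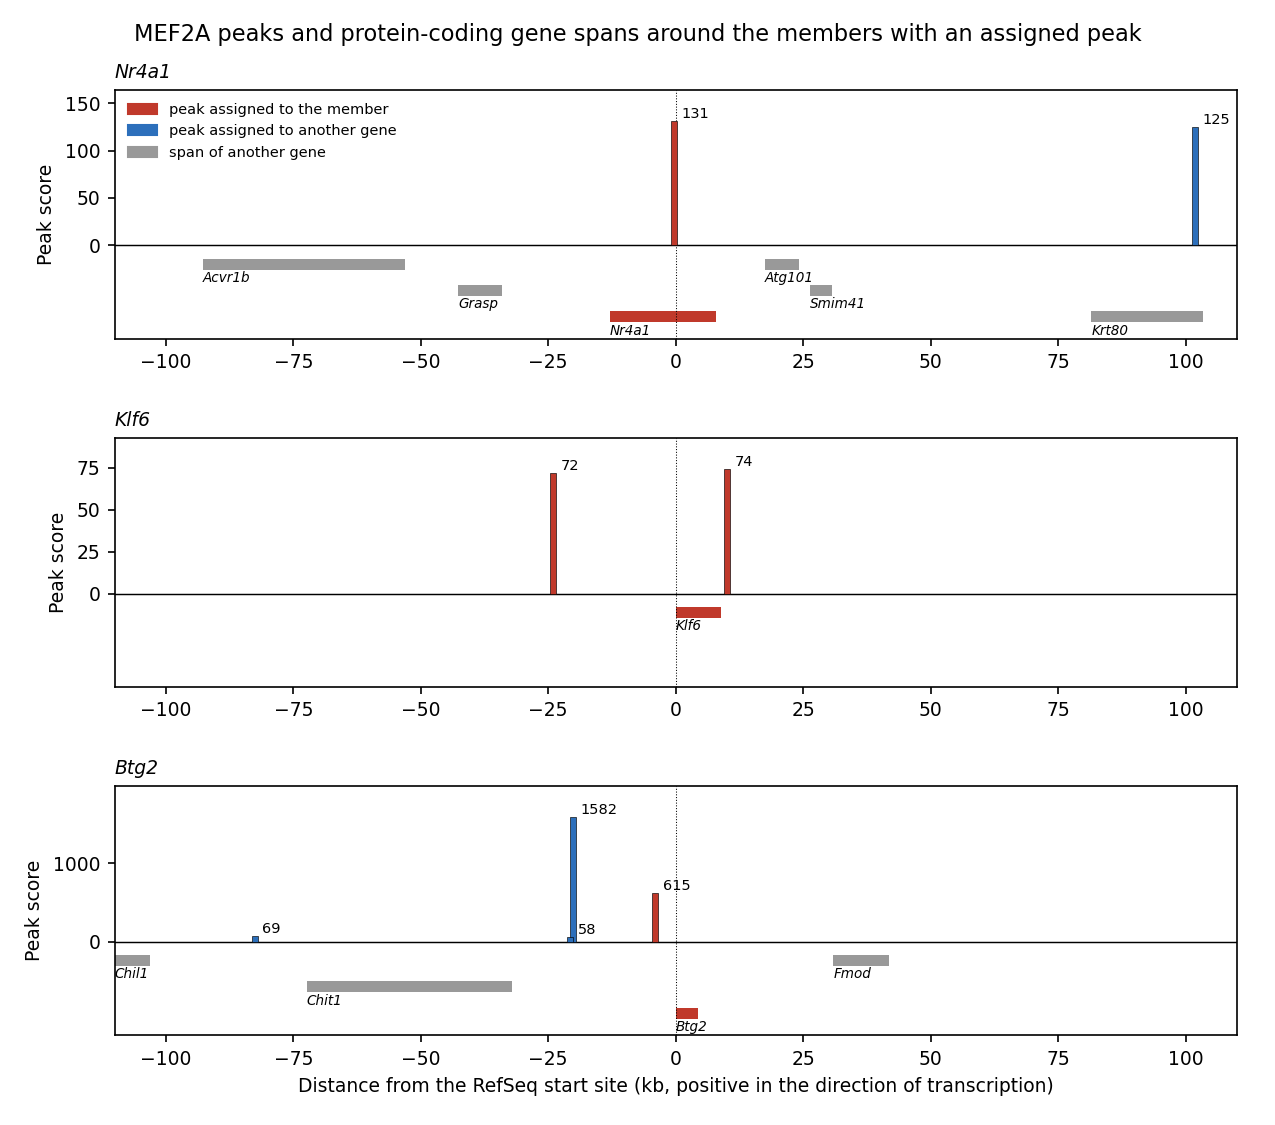
Peak scores (bars; drawn wider than the peaks) and spans of protein-coding genes (boxes) against the distance in kb from the RefSeq start site, positive in the direction of transcription, for Nr4a1, Klf6 and Btg2. The score axes differ; the Nr4a1 peak of 131 ends 180 bp before its start site, the Klf6 peaks flank the gene, and the Btg2 peaks of 615 and 1582 lie upstream, the higher one assigned to Chit1.

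The remaining KLF genes and Egr1 had no assigned peak. Klf10, a gene induced by TGF-beta (chromosome 15, 38291464 to 38300711), came closest. A peak of score 114.8 at 38214443 to 38214574 lay 76.9 kb below it, but was assigned to Odf1, a sperm tail gene 4.63 kb from the peak. Its other neighbour Azin1 stood 187 kb above. With Nr4a1, Klf6 and Btg2, this made 4 of 10 genes with any peak within 100 kb, against 22% of all protein-coding genes. Of the 9 peaks in these windows, 5 were assigned to another gene.

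Klf4, one of the factors that induce pluripotency (chromosome 4, 55527137 to 55532475), fell just outside the limit. It was the nearest protein-coding gene to a peak at 55651077 to 55651434, 119 kb before its start site, with a score of 90.9. Rad23b and Actl7b are its neighbours, at 135 and 1210 kb. Klf5, a regulator of smooth muscle and muscle differentiation (chromosome 14, 99298691 to 99313412), had its nearest peak at 99607940 to 99608252, 295 kb above. That peak was strong, with a score of 485.9, rank 119. It and a second of score 147 lay in the 553 kb between Klf5 and its relative Klf12, nearer to Klf12, and more than 100 kb from both. Pibf1 lies 43.8 kb on the other side of Klf5.

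Klf2, a factor of endothelial quiescence (chromosome 8, 72319062 to 72321654), had no peak within 500 kb, and the nearest was 758 kb away. Its neighbours Ap1m1 and Eps15l1 are 61.7 and 19.3 kb away. Yet the Klf2 window held the MEF2 consensus, 118 to 109 bases before the start site, which was found in 0.557% of all promoters. Klf2 was the only early gene of the 7 with this match. A looser form of the motif, added after the data were seen and held by 3.19% of promoters, also matched Nr4a2, 167 to 158 bases before its start site. A match in a sequence is a description and no evidence of a site in use. Neither gene had a listed peak within 500 kb, so the MEF2 matches in these promoter windows and the peaks did not coincide.

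Egr1, a serum-induced zinc-finger factor (chromosome 18, 34861207 to 34864956), had no peak within 100 kb, and its nearest was 316 kb above it. That peak scored 53.9 and lay inside Ctnna1. A stronger one of score 423 at 360 kb below lay inside Fam13b, and another of score 54.4 at 466 kb inside Sil1. Reep2 and Etf1 flank Egr1 at 13.7 and 37.8 kb.

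**Figure D3:**
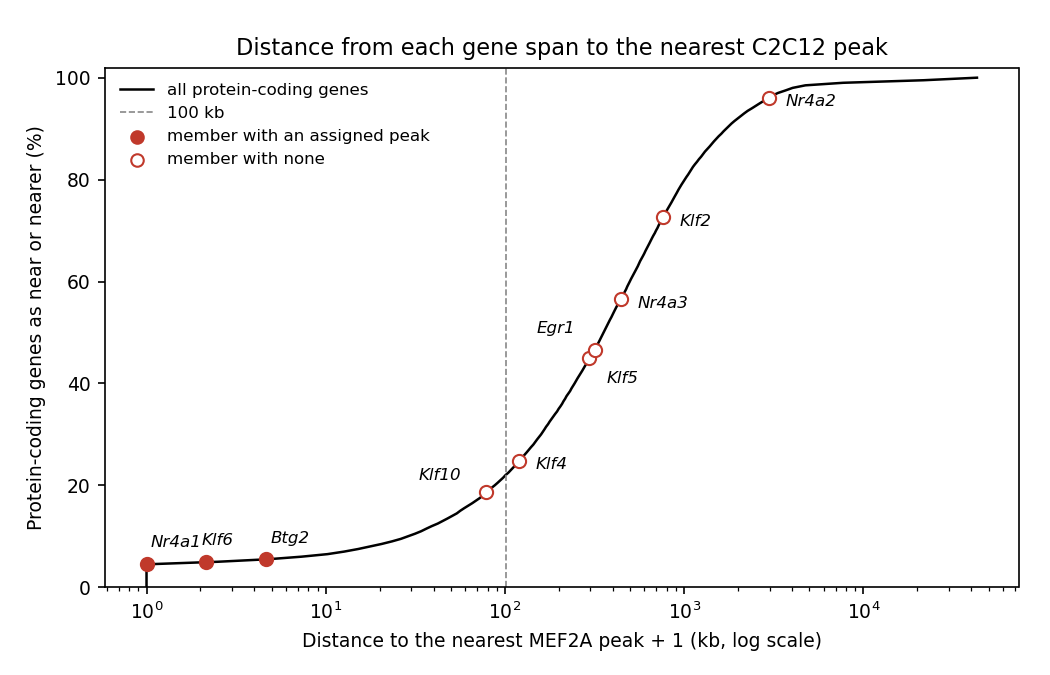
The curve gives the percentage of protein-coding genes (vertical) whose nearest C2C12 peak is at or below a distance in kb (horizontal, log scale, 1 added); circles are the 10 early genes. Nr4a1, Klf6 and Btg2 (filled) lie within 3.65 kb of a peak, Klf10 and Klf4 lie near the 100 kb line, and Nr4a2 is the farthest at 2.96 Mb.

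In order of the distance to the nearest peak, the genes ran Nr4a1, Klf6, Btg2, Klf10, Klf4, Klf5, Egr1, Nr4a3, Klf2 and Nr4a2. The median was 207 kb for the early genes and 354 kb for all protein-coding genes. Of the 10 genes, some had a peak inside or within 3.65 kb and the others had none nearer than 76.9 kb. Over all protein-coding genes, 5.46% were as near to a peak as Btg2 and 18.6% as near as Klf10. The gap between these distances was seen in 10 genes and was not tested. The stretch of genome assigned to each early gene had a median of 126 kb, against 45.8 kb for all protein-coding genes, and a longer stretch can catch more peaks. It was shortest for Egr1 (29.5 kb), Btg2 (33.6 kb) and Nr4a1 (36.2 kb), so Btg2 and Nr4a1 had their peaks on short stretches, and Klf6 had its peaks on the longest of the 10. Over the 12110 genes with stretches in the range of these 10, 8.45% had an assigned peak. That range was wide, from 29.5 to 208.9 kb. The 12110 genes were not matched to the median of 126 kb, so this share does not adjust for length. Per Mb of assigned stretch, the early genes had 3.73 peaks, against 1.21 over all protein-coding genes. The first value rests on 4 peaks, and the difference was not tested.

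**Figure D4:**
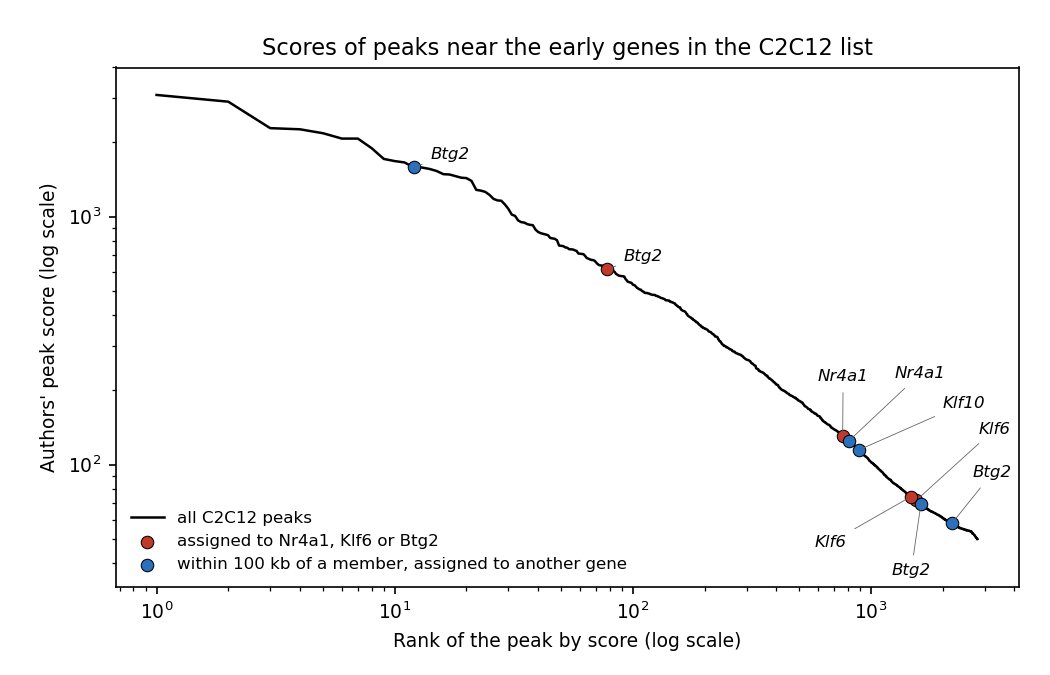
Authors' score against rank, both on log scales, for all 2797 C2C12 peaks (line) and for the 9 peaks within 100 kb of an early gene (circles, labelled by that gene). Of the peaks assigned to an early gene (red), that of Btg2 ranks 78, that of Nr4a1 760 and those of Klf6 1468 and 1548; the peak of rank 12 near Btg2 is blue because it was assigned to Chit1.

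Genes around these early genes in their pathways were described by the same assignment, against the 7.73% of all protein-coding genes. Of 18 upstream regulators, 3 had a peak (16.7%). They were Mrtfa, the coactivator of serum response factor, with 3 peaks and a highest score of 210.5, Mef2c with 3 peaks and a highest score of 100.2, and Elk3, a ternary complex factor, with a peak of 90.9 at 32.4 kb. Srf, Creb1, the CREB coactivators Crtc1, Crtc2 and Crtc3, and the other MEF2 genes Mef2a, Mef2b and Mef2d had none. A peak did lie 19.3 kb from Creb1, but it was assigned to another gene. The median distance to the nearest peak was 225 kb in this list, and the median stretch of genome assigned to a gene was 131 kb, against 45.8 kb for all protein-coding genes. No peak was assigned to any of 8 partners and co-regulators, namely Nab1 and Nab2, which repress EGR factors, the retinoid X receptors Rxra, Rxrb and Rxrg, Cnot7 and Cnot8 of the CCR4-NOT complex, and Prmt1. Their stretches of genome were short, with a median of 25.6 kb, and their nearest peaks lay at a median of 767 kb.

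Among 20 relatives of the early genes, 7 had 1 peak each (35%). The strongest was that of Klf7, a Krüppel-like factor known from neurons, with a score of 447.9 inside its span. Btg3 had a peak of 169 at 75.2 kb, Klf13 a peak of 142 at 92.7 kb and Klf11, which is close to Klf10 in sequence, a peak of 141.5 inside its span. Klf14 had a peak of 87.7 at 52.6 kb and Klf9 a peak of 87.2 at 5.57 kb. None of Egr2, Egr3 and Egr4 had an assigned peak, as was the case for Egr1. Only 7.73% of all protein-coding genes had one. The median distance to the nearest peak was 172 kb for the relatives, against 354 kb for all protein-coding genes, and their median stretch of 78.4 kb was also the longer one.

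Of 41 other early genes, 15 (36.6%) had a peak. A peak scoring 100 or more was held by 7 of them, against 3.47% of all protein-coding genes. Their median stretch was 76.4 kb, against 45.8 kb for all protein-coding genes. Npas4, an activity-regulated transcription factor gene, had the strongest at 2912, followed by Jun (577), Errfi1 (295, at 44.8 kb), Atf3 (286), Ccn1 (198, at 1.75 kb) and Dusp1 (119.5, at 22.4 kb). Only the Npas4 peak scored higher than the assigned Btg2 peak of 615. Their median distance to a peak was 95.7 kb. Of 12 muscle metabolic genes known to lie downstream of NR4A receptors, 3 had a peak: Ppargc1a, which encodes the coactivator PGC-1alpha, with 4 peaks and a highest score of 276.8, Lpin1 with a peak of 72.0 at 12.7 kb, and Pdk4 with one of 61.6 at 13.7 kb. The share was 25%, the median distance to the nearest peak was 223 kb and the median stretch was 45.6 kb. Of the 6 peaks in this list, 4 went to Ppargc1a, whose span is long (chromosome 5, 51454249 to 52115853). Whether the length of the span bears on this count was not tested.

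The rat cardiomyocyte list held 1868 peaks with a median score of 62.0. No rn5 annotation was used here, so no rat peak was tied to an early gene and the C2C12 and cardiomyocyte occupancy of these genes was not compared.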

How the data were processed

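Nuclei were sonicated and MEF2A was pulled down with an antibody before exonuclease treatment, per the labels' protocols. Per the submitters' processing notes, the tools were MACS 1.4.2, BWA 0.5.9, CASAVA 1.7.0, SAMtools and Picard, with builds mm10 and rn5 and no settings. The authors deposited 1 peak list per MEF2A library, with a score for each peak whose scale no header states, so the score only describes and ranks peaks within a list. The sources used here do not say whether IgG was the control. Depth is unknown, and no interval was computed.

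Starts in the lists count from 0, and printed ones count from 1. Each C2C12 peak went to the closest protein-coding span, up to 100 kb away, in a RefSeq table for GRCm38.p6, which underlies mm10. Distance was 0 inside a span and otherwise ran from the nearer peak edge, and 26 peaks that lay in more than 1 span were given to every one of these. Start sites and strands came from the RefSeq promoter table, whose windows of 300 bases were searched for motifs on both strands. The MEF2 consensus is CTA, any 4 of A or T, then TAG. The looser form, which takes in the consensus, also allows T in the first place and A in the last. The CArG box is CC, any 6 of A or T, then GG. Palindromes match on both strands.

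The members and lists were chosen with earlier results of these data known, and nothing was tested between groups. Named were all 10 members, their neighbours, genes that took a peak within 100 kb of a member, and up to 6 genes of each list by score. List genes without a peak, genes at peaks beyond 100 kb and noncoding genes were named after their values were seen. Assignment was tested on simulated data. Alternatives were a score of at least 100, limits of 10, 50 and 500 kb, all annotated genes, merging of peaks under 1 kb apart, every span within 100 kb and, chosen after seeing the data, the nearer end of a span and the looser motif. The tools used here were matplotlib 3.10.9, scipy 1.17.1, pandas 2.3.3, numpy 2.4.6 and Python 3.11.15.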

Additional observations from a re-analysis of the deposited data

How the results depend on the processing

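Nr4a1 had an assigned peak of score 131 under all 8 alternatives, Klf6 under 7 and Btg2 under 7. With peaks scoring at least 100, the members had 2 peaks in place of 4, Klf6 had none and 3.47% of protein-coding genes had a peak. With all annotated genes competing, the members again had 2 peaks and the share was 5.96%. Btg2 lost its peak to the noncoding gene Gm31974, and Klf6 lost its peak of 71.8 to the noncoding gene Gm35464. With a 500 kb limit they had 7 peaks and the share was 8.61%, since Klf4 gained 1 and Klf6 had 4, up to a score of 468.7. Counting every span within 100 kb gave 9 peaks and 22%, with 4 for Btg2, up to 1582. The share was 5.75% at 10 kb and 7.13% at 50 kb. Members with a peak numbered 2 to 4 throughout. The looser MEF2 motif matched 2 promoters in place of 1. Alternatives for rat peaks were not run, since no rat annotation was used. No replicate shows which weak peaks recur. No paired analysis was possible because there was 1 library in each group.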

Other observations

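Of the 23 peaks within 500 kb of an early gene, 7 (30.4%) lay inside the span of a long noncoding RNA gene of the RefSeq table and 12 (52.2%) lay inside or within 5 kb of one. Over all 2797 peaks of the C2C12 list these shares were 12.6% and 20.3%. Peaks near 1 gene share their surroundings, and the difference was not tested. The Btg2 peak of score 615 lay inside the span of Gm31974, and the peak of 1582 lay 3.81 kb from Gm32039. Upstream of Klf6, the peak of score 71.8 was 2.81 kb from Gm35464. The peaks of 485.9 and 147 between Klf5 and Klf12 both lay inside Gm34061, and the pair below Nr4a3 lay inside Gm42284 and Gm32487. The Klf4 peak of 90.9 was 11.9 kb from Gm12506. By contrast, the strong distal Klf6 peak of 468.7 had no annotated gene of any kind nearer than 113 kb. These are positions only, and whether the noncoding genes are transcribed in C2C12 cells was not tested.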
